A study of Mus musculus with 10 samples.

Results

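Transcript levels of 10 genes of the vessel wall were followed in irradiated mouse lung: the leukocyte adhesion genes Icam1, Icam2, Vcam1, Selp, Sele and Pecam1, and the thrombosis genes Vwf, Thbd, Procr and Nos3. They were chosen by symbol, through the match of Ensembl identifiers to the GENCODE M21 annotation, and make up 10 of the 45786 genes in the deposited tables. All 10 were found and passed the filter on low counts. RNA sequencing was done on whole-lung cell suspensions of C57BL/6J mice, an inbred laboratory strain. The irradiated groups received 12.5 Gy of γ-radiation to the whole thorax, and the age-matched control groups received 0 Gy. Each group was sampled at 24 hours and at 1, 4, 12 and 32 weeks. The 5 irradiated and 5 control libraries each held RNA pooled from 3 mice. Every time had 1 irradiated and 1 control pool, so no single time had a replicate. The labels name no transgene or deletion, and no age or sex.

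Endothelial cells hold blood fluid and at rest keep leukocytes and platelets from sticking. Activated endothelium displays P-selectin (Selp) and E-selectin (Sele), which let leukocytes roll, and then ICAM-1 (Icam1) and VCAM-1 (Vcam1), to which leukocyte integrins bind firmly, while PECAM-1 (Pecam1) and ICAM-2 (Icam2) lie at the junctions that leukocytes cross. Von Willebrand factor (Vwf) captures platelets and is stored with P-selectin in Weibel-Palade bodies. Against it stand thrombomodulin (Thbd) and the endothelial protein C receptor (Procr), which together turn thrombin into an activator of the anticoagulant protein C, and endothelial nitric oxide synthase (Nos3), whose product relaxes vessels and restrains platelets. In lung, Icam1 is also made by alveolar epithelium and macrophages, Selp and Vwf by megakaryocytes, and Vwf is low in most alveolar capillaries and high in veins.

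RefSeq promoter windows (build GRCm38.p6, from 250 bases before to 50 bases after the annotated start, plus strand) were matched for 4 of the 10 genes. These 4 are shown because the reference held no window for the other members. Procr was the member that passed a test, and Selp was the member whose irradiated and control pools did not overlap. Icam1 was the member with the narrowest controls, and Sele is the near neighbour of Selp on chromosome 1. Capitals mark matches, on either strand, to the TATA box TATAAA, the ETS core CCGGAA and the AP-1 site TGANTCA, where N is any base. The windows are chr2:155750967-155751266 for Procr, chr1:164115014-164115313 for Selp, chr1:164047984-164048283 for Sele and chr9:21015690-21015989 for Icam1.
Procr: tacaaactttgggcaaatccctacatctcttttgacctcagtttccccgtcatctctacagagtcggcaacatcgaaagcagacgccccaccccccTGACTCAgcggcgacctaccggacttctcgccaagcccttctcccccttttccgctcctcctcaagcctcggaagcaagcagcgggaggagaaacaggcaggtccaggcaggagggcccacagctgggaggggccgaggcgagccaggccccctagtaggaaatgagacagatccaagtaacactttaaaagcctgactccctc
Selp: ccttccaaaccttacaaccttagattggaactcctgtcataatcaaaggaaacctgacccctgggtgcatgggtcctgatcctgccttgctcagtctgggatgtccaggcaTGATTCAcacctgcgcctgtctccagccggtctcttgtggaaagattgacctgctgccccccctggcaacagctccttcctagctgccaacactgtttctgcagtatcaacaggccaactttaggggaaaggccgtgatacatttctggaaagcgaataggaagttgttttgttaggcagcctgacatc
Sele: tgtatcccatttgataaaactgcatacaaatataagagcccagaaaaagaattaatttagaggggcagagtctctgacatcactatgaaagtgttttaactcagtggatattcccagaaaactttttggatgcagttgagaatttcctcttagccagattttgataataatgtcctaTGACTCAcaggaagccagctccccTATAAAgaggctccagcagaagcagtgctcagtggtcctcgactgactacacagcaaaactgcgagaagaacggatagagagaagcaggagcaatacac
Icam1: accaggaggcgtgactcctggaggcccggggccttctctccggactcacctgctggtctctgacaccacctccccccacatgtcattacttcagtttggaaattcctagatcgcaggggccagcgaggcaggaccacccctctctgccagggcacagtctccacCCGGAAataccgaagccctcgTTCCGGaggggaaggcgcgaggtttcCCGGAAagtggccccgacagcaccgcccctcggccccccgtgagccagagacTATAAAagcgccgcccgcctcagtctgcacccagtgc
Of 32851 promoter windows of that length, 7.81% held TGANTCA, 13.6% held TATAAA and 14.9% held CCGGAA. Procr, Selp and Sele held TGANTCA once each, starting 154, 139 and 73 bases before the start. Sele also held TATAAA, 49 bases before the start. Icam1 held 3 copies of CCGGAA before the start. Its match to TATAAA lay after the RefSeq start but before the GENCODE start of Icam1 at 21015985, near the end of the window. Distances are to the RefSeq start, which differs from the GENCODE start for Procr (155751117) and Icam1. A strict consensus for the inflammatory factor NF-kB, which requires GGG at its start, was in 4.51% of the windows and was found in 0 of these 4. A site that departs from this consensus would be missed, so the search cannot show that a window lacks NF-kB sites. These matches describe letters in a window and are not binding measurements.

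Division of the deposited counts by the scaling step found in each library gave 12711532 to 17473034 fragments in irradiated pools and 8676920 to 17320200 in control pools. The deposited counts of Vwf were 1303 to 4439 a pool, and those of Sele, the shallowest member, 1.61 to 54.4. Haemoglobin transcripts took 2.1% to 6.57% of counts in irradiated pools and 0.8% to 6.67% in control pools. The alveolar type 2 marker Sftpc was at 4967 to 43777 CPM in irradiated pools and at 18591 to 32379 CPM in control pools. None of the 21 endothelial markers, which exclude the 10 genes, was at 0 in any library. Their summed level was 1648, 2152, 1426, 756 and 1087 CPM in irradiated pools in time order, against 1668, 1266, 1903, 1323 and 949.5 CPM in control pools. CPM are counts scaled to a common library total after TMM normalization and are compared here within a gene between pools. In a bulk suspension, fewer cells of a type and less RNA per cell cannot be told apart.

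Levels were compared between genes on the FPKM scale, which divides by gene length. Icam2 was the most abundant, with a median of 90.5 FPKM in irradiated and 83.7 FPKM in control pools. Icam1 (42.2 and 29.9), Pecam1 (31.0 and 30.0), Thbd (30.1 and 29.4) and Vwf (27.3 and 30.4) followed, and their ranges over pools overlapped, so the order among these 4 is not resolved. Vcam1 had medians of 13.1 FPKM in irradiated and 12.8 FPKM in control pools, Selp 5.58 and 3.31, Procr 5.16 and 3.58, and Nos3 1.63 and 1.00. The ranges of Selp and Procr overlapped each other too. Sele was lowest, at 0.21 FPKM in irradiated and 0.166 FPKM in control pools.

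**Figure D1:**
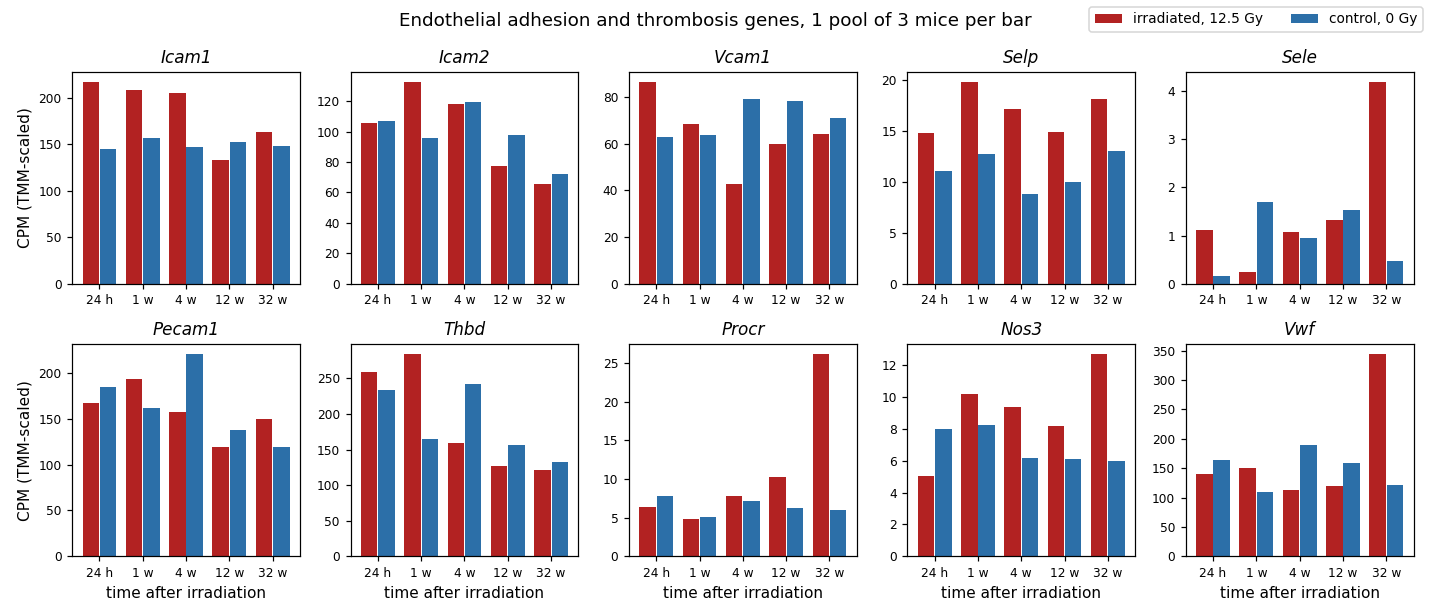
Level of each of the 10 genes in CPM (TMM-scaled, axis from 0) at 5 times after irradiation, with the irradiated pool left of its same-time control and 1 pool of 3 mice per bar. Selp is higher in the irradiated pool at all 5 times, and Procr (26.1 CPM) and Vwf (344 CPM) stand highest in the 32-week irradiated pool.

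Irradiated pools were first set against same-time controls over all 5 times, with time as a block. None of the 10 genes passed (edgeR's quasi-likelihood test, Benjamini-Hochberg adjusted p under 0.05), and neither did any of the 15625 genes tested, so that 0.0% were called. At an unadjusted p under 0.05 there were 1732 genes, 2 of them members. DESeq2 called 258 genes and limma on log2 FPKM 0, with 0 members in both. The median log2 fold change was 0.20 over the 10 genes, 6 of which lay above 0, and 0.015 over all genes tested. A change that differs between times counts as spread in this test.

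Selp (ENSMUSG00000026580, chr1:164115264-164150026) was the adhesion gene with the steadiest difference. It was at 14.7, 19.8, 17.1, 14.9 and 18.1 CPM in irradiated pools in time order, against 11.1, 12.7, 8.84, 10.02 and 12.97 CPM in control pools. The lowest irradiated pool lay above the highest control, so the groups did not overlap, and the irradiated pool was higher at 5 of 5 times. All 5 irradiated pools lay above all 5 controls for 1.17% of the genes tested, and 6.75% were higher at 5 of 5 times, so Selp was 1 of 10 members in each case. Selp averaged 16.9 ± 2.16 CPM over the irradiated and 11.1 ± 1.76 CPM over the control pools (SD, n = 5 each). The log2 fold change of 0.61 ± 0.16 (SE) did not pass (edgeR adjusted p = 0.257).

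The authors' FPKM did not show Selp apart. In FPKM, Selp was at 2.62, 7.08, 5.58, 5.26 and 7.91 in irradiated pools, against 3.31, 3.71, 2.14, 6.52 and 3.00 in control pools, so that the groups overlapped and the irradiated pool was higher at 3 of 5 times. The ratio of deposited count to FPKM differed 3.89-fold between pools for Selp, whereas its median span over all genes was 1.11-fold and 1.7% of genes spanned as much. On the FPKM scale the log2 fold change over the 5 times was 0.50 with a pseudocount of 1 (limma adjusted p = 0.405). Selp overlaps Gm16587 and Gm16548 on the other strand. The library chemistry does not mark strand, and these had at most 12.4 and 32.1 deposited counts. The summed level of 12 platelet and megakaryocyte markers ran from 121 to 274 CPM in irradiated and from 125 to 175 CPM in control pools.

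Sele (ENSMUSG00000026582, chr1:164048234-164057677) was barely detected. It was at 1.12, 0.252, 1.07, 1.32 and 4.18 CPM in irradiated pools and at 0.165, 1.70, 0.954, 1.53 and 0.463 CPM in control pools. The groups overlapped, and the 32-week irradiated pool alone exceeded every control. With few counts behind the low pools, folds between single pools are not given for it, and its log2 fold change over the 5 times was 0.57 ± 0.79 (SE; edgeR adjusted p = 0.821). Without the 32-week pools the sign turned, at -0.10.

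Icam1 (ENSMUSG00000037405, chr9:21015985-21028817), the counter-receptor of the β2 integrins, stood above its controls early without passing. It was at 217, 209, 205, 133 and 163 CPM in irradiated pools, against 145, 156, 147, 152 and 148 CPM in control pools. Irradiated pools lay above every control at 24 hours, 1, 4 and 32 weeks and below every control at 12 weeks. The irradiated pools spread widely, at 185 ± 35.8 CPM, and the controls little, at 149.7 ± 4.49 CPM (SD, n = 5 each). Set against the 5 controls, the log2 difference was 0.54 ± 0.15 (SE) at 24 hours (edgeR adjusted p = 0.17), 0.48 ± 0.15 at 1 week (adjusted p = 0.36) and 0.45 ± 0.15 at 4 weeks (adjusted p = 0.531), so none passed. Over the 5 times it was 0.29 ± 0.12 (edgeR adjusted p = 0.447). The summed level of 6 alveolar type 1 markers, none at 0 in any pool, was 906, 1053, 821, 409 and 519 CPM in irradiated pools, against 824, 604, 764.5, 616 and 471 CPM in control pools. This sum differed from the same-time control in the same direction as Icam1 at each time. The difference in mean log2 CPM of these markers was 0.2, 0.8, 0.02, -0.27 and 0.0 in time order. At 32 weeks Cav1 and Hopx were higher than in the same-time control and the other markers lower. Cav1 is not particular to this list, as it is also counted below among the genes of nitric oxide and vascular tone. The part of alveolar type 1 cells in the Icam1 difference was not tested.

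Vcam1 (ENSMUSG00000027962, chr3:116109949-116129688), the ligand of the α4 integrins, lay below its controls at 4 weeks without passing. It was at 86.3, 68.3, 42.8, 59.7 and 64.1 CPM in irradiated pools and at 62.7, 63.5, 79.1, 78.2 and 71.1 CPM in control pools. The 24-hour irradiated pool lay above every control, and the 4-week and 12-week irradiated pools below every control. At 4 weeks the log2 difference to the 5 controls was -0.73 ± 0.21 (SE), which did not pass (edgeR adjusted p = 0.475), and over the 5 times it was -0.17 ± 0.18 (adjusted p = 0.755). Icam1 and Vcam1 thus lay on opposite sides of their controls at 4 weeks.

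For the 2 junction genes the differences over the 5 times were smaller than their SE and did not pass. Icam2 (ENSMUSG00000001029, chr11:106377656-106388075) was at 105, 133, 118, 77.5 and 65.4 CPM in irradiated pools and at 107, 95.7, 119.7, 97.8 and 72.3 CPM in control pools, with a log2 fold change of -0.01 ± 0.12 (SE; edgeR adjusted p = 0.989). Both treatments were lowest at 32 weeks. Pecam1 (ENSMUSG00000020717, chr11:106654217-106750628) was at 167, 194, 157, 119 and 149.98 CPM in irradiated pools and at 184, 162, 220.0, 138 and 119 CPM in control pools, with a log2 fold change of -0.05 ± 0.13 (SE; edgeR adjusted p = 0.923). The groups of both genes overlapped.

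**Figure D2:**
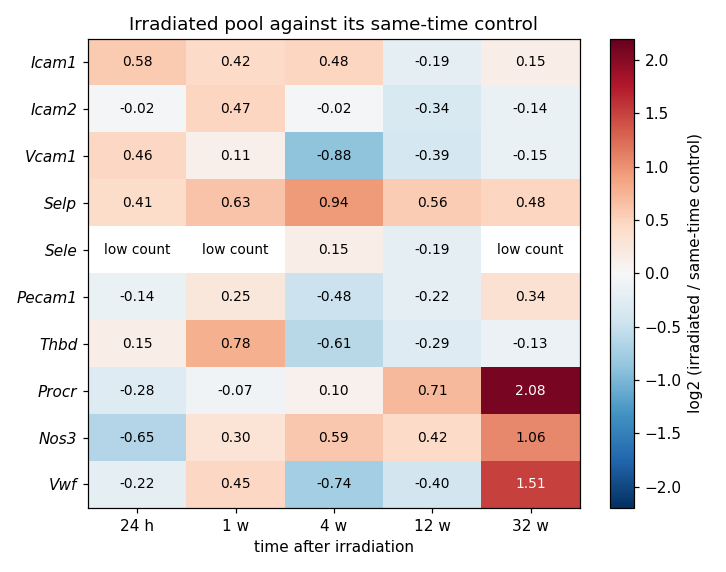
Log2 ratio of each irradiated pool to its same-time control (TMM-scaled counts, prior count 2), 1 pool against 1 pool with no test, for 10 genes (rows) and 5 times (columns); cells with under 10 deposited counts in a pool read low count. Selp is positive at all 5 times, while Procr (2.08) and Vwf (1.51) are highest at 32 weeks.

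Each irradiated pool was then set against the 5 controls, which serve all 5 of these comparisons, so the comparisons are not independent. The pool of 1 time is assumed to vary as the controls do. Members that passed numbered 0 at 24 hours, where 1.03% of genes were called, 0 at 1 week (0.0192%), 0 at 4 weeks (0.0448%), 0 at 12 weeks (0.0%) and 1 at 32 weeks (0.762%). The median log2 difference over the 10 genes was 0.16, 0.33, 0.21, -0.21 and 0.41 in time order. Over all genes tested it was -0.011, 0.011, -0.003, -0.025 and -0.02. DESeq2 called 0 members before 32 weeks and limma on FPKM called 0 members before 32 weeks. At 12 weeks, where edgeR called 0 genes, 1669 had an unadjusted p under 0.05, DESeq2 called 233 and limma 7 with a pseudocount of 1. Each control against the other 4 gave 0, 0, 0, 1 and 0 genes in time order and 0 members.

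At 32 weeks 2 thrombosis genes stood apart. Procr rose, and Vwf exceeded its level in every control without passing. Nos3, Selp, Sele and Icam1 were also above their 5 controls without passing. Icam2 and Thbd were below theirs. A single pool can lie outside the range of 5 controls by chance. The share of all genes tested that did so is not given here for any time. The members and markers described as above or below every control therefore cannot be set against it.

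Procr (ENSMUSG00000027611, chr2:155751117-155755471) was at 6.41, 4.86, 7.75, 10.2 and 26.1 CPM in irradiated pools, against 7.84, 5.11, 7.20, 6.20 and 6.02 CPM in control pools. In CPM, the 24-hour and 4-week irradiated pools lay within the controls and the 1-week one just below them. The 12-week irradiated pool lay above every control, and the 32-week irradiated pool stood well apart. In FPKM, Procr was at 3.63, 3.24, 6.41, 5.16 and 15.7 in irradiated pools, against 4.89, 3.10, 4.46, 2.90 and 3.58 in control pools. On that scale the 24-hour and 1-week irradiated pools lay within the controls, and the 4-week, 12-week and 32-week ones above every control. The ratio of deposited count to FPKM differed 1.62-fold between pools for Procr. In CPM, the 32-week irradiated pool was 4.24 times its same-time control, at a prior count of 2. Procr rose against the 5 controls, with a log2 fold change of 2.01 ± 0.30 (SE) and an edgeR adjusted p of 0.0266, and 0.525% of the genes tested rose at that time. Without the 1-week control the adjusted p was 0.0852, at a log2 fold change of 1.93. On the FPKM scale the log2 fold change was 1.82 with a pseudocount of 1 (limma adjusted p = 0.0178).

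Vwf (ENSMUSG00000001930, chr6:125546774-125686679) was at 140.1, 151, 114, 120.4 and 344 CPM in irradiated pools, against 163, 110.1, 190.2, 158 and 121 CPM in control pools. The 4 earlier irradiated pools lay within the controls, and the 32-week pool exceeded all other pools. It was 2.84 times its same-time control. The log2 fold change against the 5 controls, 1.21 ± 0.25 (SE), did not pass (edgeR adjusted p = 0.0599). Vwf passed without the 4-week control, with no filter on low counts and with DESeq2. It did not pass in the other 9 of 12 alternatives. Over all 12 the log2 fold change ran from 0.92 to 1.33.

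Nos3 (ENSMUSG00000028978, chr5:24364810-24384474) was at 5.05, 10.2, 9.36, 8.21 and 12.7 CPM in irradiated pools, against 8.01, 8.27, 6.15, 6.11 and 6.02 CPM in control pools. It was the lowest of all 10 pools in the 24-hour irradiated pool and the highest in the 32-week irradiated pool. The 32-week log2 fold change of 0.87 ± 0.33 (SE) did not pass (edgeR adjusted p = 0.23). Nos3 overlaps Atg9b and Gm15587 on the other strand, each with at most 20.1 deposited counts, while Nos3 had 62.9 to 164.

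Thbd (ENSMUSG00000074743, chr2:148404466-148408188), the thrombin receptor that works with Procr, did not follow it. It was at 259, 284, 159, 127 and 121 CPM in irradiated pools, against 234, 165, 242, 156 and 133 CPM in control pools. The 32-week irradiated pool lay below every control, with a log2 difference of -0.62 ± 0.32 (SE; edgeR adjusted p = 0.382). Of the adhesion genes, Sele had a 32-week log2 fold change of 2.10 ± 0.80 (adjusted p = 0.23), Selp 0.70 ± 0.29 (0.275) and Icam2 -0.59 ± 0.25 (0.285), none of which passed.

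**Figure D3:**
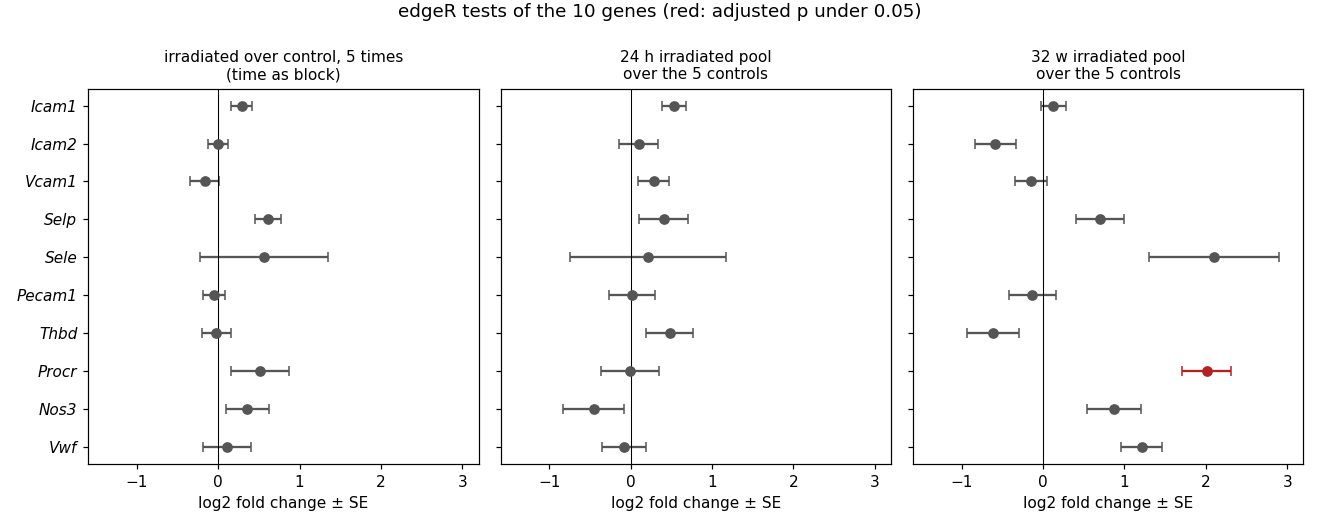
Log2 fold change with its SE (edgeR's quasi-likelihood fit) of the 10 genes for irradiated over control pools across 5 times, for the 24-hour irradiated pool and for the 32-week irradiated pool, each of the last over the 5 controls. Procr at 32 weeks, 2.01 ± 0.30, is the point with an adjusted p under 0.05.

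Markers of other cells at 32 weeks were set beside these values. Below, a list's genes are counted as above or below the mean of the 5 controls by the sign of their fitted log2 difference, and as beyond every control where that is said. Of 5 vein markers 4 were above the control mean and 3 above every control, with a median log2 difference of 0.71 and 0 that passed. The summed vein level was 161 to 307 CPM in irradiated pools, highest at 32 weeks, and 146 to 179 CPM in control pools. Slc6a2, a noradrenaline transporter of lung veins, was at 35.6 CPM in the 32-week irradiated pool and at 5.84 to 18.8 CPM in control pools. Lrg1, another vein marker, was at 156 CPM in that pool, against 40.4 to 87.7 CPM in control pools. Nr2f2 lay below every control, at 12.8 CPM against 13.2 to 19.3 CPM. The other vessel markers were mostly below the control mean, with 0 that passed. They numbered 18 of 21 endothelial markers (median -0.34), 6 of 6 of general capillaries (-0.40), 6 of 7 of aerocyte capillaries (-0.62), 4 of 6 of arteries (-0.26) and 5 of 5 of lymphatic vessels (-0.50). Against the 32-week control alone, the mean log2 CPM of these lists differed by 0.19, 0.0, 0.06, 0.25 and -0.26 in that order. For veins it differed by 0.84. The aerocyte marker Car4 lay above every control, at 555 CPM against 172 to 289 CPM. Of 12 platelet markers 3 were above the control mean and 1 above every control, with a median of -0.28 and 0 that passed. Of 6 alveolar macrophage markers 5 were above the control mean and 3 above every control, with a median of 0.31 and 0 that passed, and their summed level was 2392 to 20402 CPM in irradiated pools, highest at 32 weeks, against 6674 to 14074 CPM in control pools. Among 7 alveolar type 2 markers, Sftpc and Etv5 fell (log2 -2.02 and -1.38, edgeR adjusted p = 0.0439 and 0.0455), as did Dcn among 6 fibroblast markers (log2 -1.89, adjusted p = 0.0444). None of the 3 passed without the 24-hour, the 1-week or the 12-week control, and without the 32-week control 1 of them did. Of the tested markers in these lists, those at 0 in a pool were the platelet genes Gp1ba, in the 12-week control, and Gp6, in the 32-week control. The part of these cells in the 32-week values was not tested.

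The 10 genes were also set relative to the 21 endothelial markers. The markers' mean log2 CPM was 5.80, 6.07, 5.55, 4.53 and 5.17 in irradiated pools, against 5.74, 5.42, 5.94, 5.39 and 4.98 in control pools. At 12 weeks 20 of 21 were below the control mean and 16 below every control, with a median log2 difference of -1.04 and 0 that passed, and Cyyr1 (4.42 CPM against 15.8 to 19.6 CPM in control pools) and Tek (24.0 CPM against 47.9 to 100.2 CPM) had the smallest p. Of the 10 genes, 6 were below the control mean and 3 (Icam1, Vcam1 and Thbd) below every control at 12 weeks, with a median of -0.21. Relative to the marker mean at 12 weeks, where that mean was itself lower, the irradiated pool exceeded its same-time control for all 10 genes. The difference was 1.57 for Procr, 1.43 for Selp and 1.28 for Nos3 on the log2 scale, and 0.47 to 0.67 for the other 7, Thbd (0.57) among them. At 32 weeks it was 2.60 for Sele, whose control had few counts, 1.90 for Procr, 1.32 for Vwf, 0.87 for Nos3, 0.29 for Selp and 0.15 for Pecam1, and it ran from -0.34 to -0.04 for Vcam1, Icam2, Thbd and Icam1. Relative to the marker mean, Selp overlapped between groups and was higher at 4 of 5 times. Thbd stayed within 1.76 to 2.47 in irradiated and 1.90 to 2.13 in control pools. These are descriptions of single pools with no test.

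**Figure D4:**
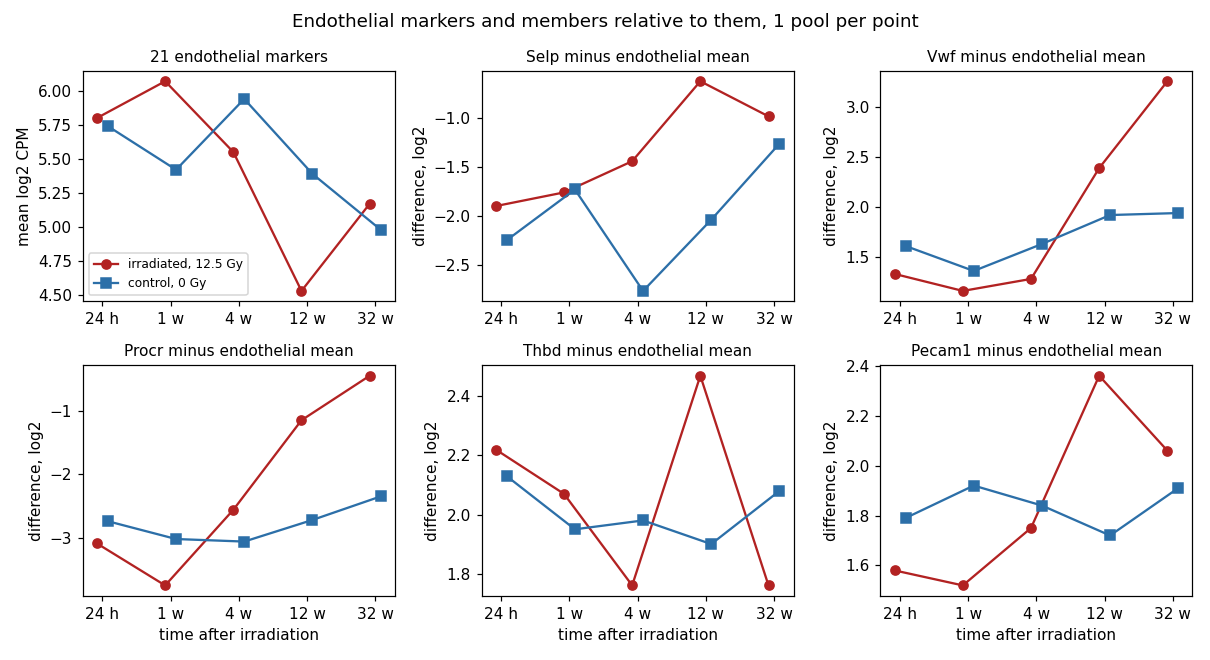
Mean log2 CPM of 21 endothelial markers, and log2 CPM of 5 of the genes minus that mean, at 5 times after irradiation, 1 pool per point (irradiated circles, control squares). The marker mean is lowest, at 4.53, in the 12-week irradiated pool, and Procr relative to it is highest, at -0.45, in the 32-week irradiated pool.

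Change with time was measured as a slope per doubling of days. In irradiated pools Thbd had a slope of -0.17 ± 0.04 (SE; edgeR adjusted p = 0.0639) and Procr of 0.25 ± 0.07 (adjusted p = 0.0768). Neither passed, and 1.61% of genes did. In control pools the slopes were -0.08 ± 0.04 for Thbd and -0.03 ± 0.07 for Procr, and 0.0% of genes passed. Thbd passed in irradiated pools without the 4-week pools (adjusted p = 0.0431), with no filter (0.0499) and with DESeq2 (0.0045). Procr passed with DESeq2 (0.0194) and with the times taken in order, 1 to 5 (0.0407). Thbd did not pass in the other 10 of 13 alternatives, nor Procr in the other 11 of 13. With 1 time left out, the slope ran from -0.25 to -0.15 for Thbd and from 0.11 to 0.46 for Procr. Of the 21 endothelial markers, 20 had a negative slope in irradiated pools and 20 in control pools, with medians of -0.14 and -0.07.

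The other slopes in irradiated pools with an unadjusted p under 0.05 were those of Icam1 (-0.07 ± 0.03 SE, edgeR adjusted p = 0.223), Icam2 (-0.10 ± 0.05, adjusted p = 0.279) and Nos3 (0.12 ± 0.06, adjusted p = 0.275). Whether the difference to the same-time control changed with time was tested as an interaction. For Procr it grew by 0.27 ± 0.09 (SE) per doubling of days (edgeR adjusted p = 0.679) and for Nos3 by 0.19 ± 0.07 (adjusted p = 0.683). Neither passed, and 0.0% of genes did. At an unadjusted p under 0.05 there were 1095 genes for the interaction and 673 for the control slope, while DESeq2 called 60 and 26 and limma called 0 in both. DESeq2 called 0 members in either.

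Markers of blood and immune cells differed at 24 hours, with none at 0 in any pool. Of 9 monocyte and macrophage markers 7 were above the control mean (median log2 0.81), and Fcgr1, Ms4a7 and C1qb rose. Their summed level was 2713 CPM in the 24-hour irradiated pool, 1819 to 2713 CPM over the irradiated and 1357 to 1981 CPM over the control pools. Of 7 neutrophil markers 7 were above (0.70) and Mmp9 rose, and of 6 alveolar macrophage markers 5 were above (0.51) and Marco rose. Of 6 T cell markers 6 were below (-1.47), and Cd3g and Cd3d fell. Their summed level was 151.6 CPM in that pool, 151.6 to 391 CPM over the irradiated and 310.5 to 585 CPM over the control pools. Of 5 B cell markers 5 were below (-1.33), and Cd79a and Cd79b fell. Their summed level was 444.7 CPM in that pool, 444.7 to 1359 CPM over the irradiated and 915 to 1425 CPM over the control pools. Of these 9 genes, Fcgr1 passed whichever control was left out, the others passed in 0 to 3 of the 5 fits, and none of these 8 passed without the 1-week control. Of the other lists, the platelet gene Pf4, the lymphatic gene Lyve1 and the alveolar type 2 genes Abca3 and Etv5 also rose at 24 hours, and none of these 4 passed without the 1-week control. The part of these cells in the 24-hour values that follow was not tested.

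Genes that act with the 10 were described at 24 hours and 32 weeks, and at 12 weeks where a list differed more. Of 15 leukocyte partners, the integrins and selectin ligands that bind these molecules, 0 passed at 24 hours, where 10 were above the control mean with a median log2 difference of 0.14, against -0.011 over all genes. Itgam, the α chain of the macrophage integrin Mac-1 that binds ICAM-1, was at 342 CPM in the 24-hour irradiated pool and at 143 to 223 CPM in control pools (log2 1.02, edgeR adjusted p = 0.0717). Itgb7 was at 205 CPM, against 267 to 371 CPM in control pools (adjusted p = 0.369). At 12 weeks 14 of 15 were above the control mean and 13 above every control, with a median of 0.54 and 0 that passed, and 8 of 9 monocyte and macrophage markers were above that mean too (median 0.64). At 32 weeks 0 of 15 passed and 9 were above, with a median of 0.11. Itgb2, the β2 chain shared by LFA-1 and Mac-1, was at 1812 CPM in the irradiated pool and at 875 to 1202 CPM in control pools (log2 0.78, adjusted p = 0.0971). Itgax, another β2 partner, was at 523 CPM, against 235 to 362 CPM in control pools (log2 0.80, adjusted p = 0.0991).

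Among 19 NF-kB pathway genes and early targets, 1 passed at 24 hours. Ccl2, a monocyte attractant, was at 33.6 CPM in the irradiated pool and at 3.38 to 6.41 CPM in control pools, and rose with a log2 fold change of 2.71 ± 0.33 (SE; edgeR adjusted p = 0.00559). The median of the list was 0.06, with 11 above the control mean. At 32 weeks 0 of 19 passed, with a median of -0.04. Nfkb1 had a log2 difference of -0.57 (adjusted p = 0.25) and the TNF receptor gene Tnfrsf1b 0.44 (adjusted p = 0.371). Of 12 vessel transcription factors 0 passed at either time. Ets1 (log2 -1.18, edgeR adjusted p = 0.0671) and Mef2c (-0.89, adjusted p = 0.261) had the smallest p at 24 hours, with 7 of 12 below the control mean, beside the T and B cell markers that fell at that time. At 12 weeks 9 of 12 were below, with a median of -0.70 and 0 that passed. At 32 weeks 11 of 12 were below, with a median of -0.47. Klf2 and Klf4, which in endothelium respond to flow and drive Thbd and Nos3, were among them and did not pass. They were at 129 and 19.0 CPM in the irradiated pool, against 168 to 283 and 26.8 to 50.5 CPM in control pools. At that time 6 of 6 T cell markers were below the control mean (median -0.64), as were 5 of 5 B cell markers (-0.26). The part of lymphocytes in these values was not tested.

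Of 21 genes of coagulation and its restraint, 0 passed at 24 hours, where 17 were above the control mean with a median log2 difference of 0.42. Ptgis, the prostacyclin synthase, had 0.99 ± 0.28 (SE; edgeR adjusted p = 0.181) and Serpine2, a thrombin inhibitor, 0.97 ± 0.28 (adjusted p = 0.182). At 32 weeks 0 of 21 passed and 13 were above, with a median of 0.08. Cd63, which like Vwf and P-selectin resides in Weibel-Palade bodies but is also a lysosomal protein of many cells, was at 689 CPM in the irradiated pool and at 226 to 396 CPM in control pools (log2 1.22, adjusted p = 0.0566). Ptgs1, a cyclooxygenase, was at 121 CPM, against 43.5 to 79.8 CPM (log2 1.00, adjusted p = 0.0963).

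Of 18 genes of nitric oxide and vascular tone, Ednrb, an endothelin receptor, rose at 24 hours, at 101 CPM in the irradiated pool and at 35.4 to 51.8 CPM in control pools (log2 1.19 ± 0.23 SE, edgeR adjusted p = 0.0468). It was the only member of the list that passed, and it passed without the 24-hour control but not without any 1 of the other 4 (adjusted p up to 0.108). At 24 hours 15 of 18 were above the control mean, with a median of 0.34. At 32 weeks 0 passed and 16 of 18 were below, with a median of -0.37, whereas Nos3 lay above every control. Ddah2, which clears an inhibitor of nitric oxide synthases, had -0.94 ± 0.37 (adjusted p = 0.245) and the arginase gene Arg2 -0.85 ± 0.34 (adjusted p = 0.256). Of 15 other adhesion and junction genes, 0 passed at either time or at 12 weeks, when 13 were below the control mean and 8 below every control, with a median of -0.41. Alcam (0.49, adjusted p = 0.252) and Nectin2 (0.62, adjusted p = 0.396) had the smallest p at 24 hours, where the median was 0.19. Ocln (0.76, adjusted p = 0.23) and Jam2 (0.93, adjusted p = 0.232) did at 32 weeks, where the median was 0.00.

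Genes whose pattern over the 10 pools was most like that of a member were found by the root mean square difference of centred log2 CPM, for members that spanned more than 1 on that scale. For Procr these were Acp5 (0.25), Wfdc21 (0.30) and Xylb (0.30). Acp5, an acid phosphatase of osteoclasts and macrophages, was at 319 CPM in the 32-week irradiated pool, at 88.6 to 184 CPM in the earlier irradiated pools and at 97.2 to 119 CPM in control pools. For Vwf they were S100a1 (0.19), Ift122 (0.19) and Pgrmc1 (0.22). For Thbd they were Ehd2 (0.09), Acvrl1 (0.12) and Pmp22 (0.14), and Acvrl1 encodes an endothelial receptor of the TGF-β family. For Selp they were Vps13c (0.11), Miga2 (0.14) and Atp2a2 (0.14). The values were 0.18 to 0.20 for Nos3 (4930522L14Rik, Fam214a, Chchd4), 0.13 to 0.14 for Icam2 (Klhl5, Emp2, Nsg1) and 0.11 to 0.15 for Vcam1 (Ptpn12, Etohd2, Lysmd1). For Sele they were 0.65 to 0.67 (Ctsk, Nqo1, Ltf), the widest differences among the members searched, over genes of at least 50 counts.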

How the data were processed

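The submitters' processing notes name STAR 2.4.2a, Trimmomatic 0.32, Cuffdiff and Cufflinks 2.0.2, with build GRCm38.p4, but no role for each and no annotation. The deposited tables hold expected counts, which are estimated fragment numbers scaled between libraries before deposit, and FPKM, which the authors scaled for gene length and library size. Within a tolerance of 0.05, 77.6% to 80.3% of low counts in a library were whole multiples of its step, which lay between 0.576 and 1.39. Of the identifiers, 45137 matched GENCODE M21 (GRCm38 coordinates) and 649, with at most 0.168% of counts, did not. No 2 libraries were identical.

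Expected counts were rounded, filtered (filterByExpr, minimum count 10) and TMM-scaled (factors 0.933 to 1.09), and 15625 genes were tested with edgeR 4.0.16 in R 4.3.3 (quasi-likelihood, robust, 2-sided, adjusted over all genes). Over the 5 times, time was the block, since the labels pair the pools by time (4 residual degrees of freedom). For single times, the 5 controls were 1 level and each irradiated pool its own (4 residual degrees of freedom). The labels do not give replicate pools, so p-values measure the spread between pools of different times. Alternatives used DESeq2 1.42.0, limma 3.58.1 on log2(FPKM + 1) and log2(FPKM + 0.1), other scalings and filters, and left-out libraries. Scripts were tested on simulated data. All 10 members are named, and from each list of partner or marker genes the passing genes with the smallest p, up to 4, or else the 2 smallest p. For members spanning more than 1 in log2 CPM, the 3 genes of at least 50 counts with the most similar pattern are named. Members and lists were chosen with earlier results of these data known. PCR copies count as fragments.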

Additional observations from a re-analysis of the deposited data

Results flagged for a closer look

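In 3 of the 10 genes the 32-week irradiated pool lay far from the other 4 irradiated pools: its gap to the nearest, divided by the range of the 5, exceeded Dixon's critical value of 0.71. For Vwf it was at 344 CPM and the next irradiated pool at 151 CPM (ratio 0.839). For Procr the values were 26.1 and 10.2 CPM (0.747). For Sele they were 4.18 and 1.32 CPM (0.729), with 54.4 deposited counts in the 32-week pool. The rule was applied to the irradiated and to the control pools of each of the 10 genes, and it flagged no control pool. Chance flags about 1 in 20 groups, and the 5 pools differ in time after irradiation. The share of all genes flagged is not given here, so the 3 of 10 cannot be set against it. At 32 weeks 16.3% of all genes tested differed over 2-fold from the same-time control. The highest control of each gene was at 190.2, 7.84 and 1.70 CPM.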

How the results depend on the processing

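No pool was replicated at its time, which limits every comparison, and Sele is limited by its depth. Procr at 32 weeks passed with each scaling, filter and tool tried, and lost its call only without the 1-week control. The members passing at 32 weeks numbered 2 with no filter and with DESeq2, and 0 to 2 when 1 control was left out. The members passing on the irradiated slope numbered 1 with no filter, 2 with DESeq2, 1 with time order and 0 to 1 when a time was left out. Numbers of members passing in the other comparisons stayed at 0 under the alternatives.

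Without the replicate block, which pairs pools by time, 0 genes passed over the 5 times and the log2 fold changes of Icam2 (0.020) and Thbd (0.030) turned positive. With limma on log2(FPKM + 1) and log2(FPKM + 0.1), which put the median of all genes at 0.11 and 0.14, those of Icam2 (0.17 and 0.17), Pecam1 (0.082 and 0.086) and Thbd (0.10 and 0.11) did so. When 1 time was left out, they ran from -0.13 to 0.067 for Icam2, -0.33 to 0.0067 for Vcam1, -0.10 to 1.27 for Sele, -0.15 to 0.057 for Pecam1, -0.23 to 0.33 for Vwf and -0.22 to 0.12 for Thbd. The cause was not tested.

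Counts of all genes passing moved more. With no filter they were 1 over 5 times, 249 at 24 hours, 20 at 1 week, 29 at 4 weeks, 33 at 12 weeks, 353 at 32 weeks and 1 for the interaction. With DESeq2 they were 258, 524, 229, 100, 233, 811 and 60, with 26 for the control slope and 1358 for the irradiated slope. With limma on log2(FPKM + 1) they were 99 at 24 hours, 15 at 4 weeks, 7 at 12 weeks, 372 at 32 weeks and 392 for the irradiated slope, and with log2(FPKM + 0.1) 16 at 4 weeks and 12 at 12 weeks. Total count scaling gave 0 at 1 week, 68 at 32 weeks and 113 for the irradiated slope, and time order gave 385 for that slope. Leaving out 1 control gave 61 to 167 at 24 hours, 0 to 8 at 1 week, 4 to 10 at 4 weeks, 0 to 3 at 12 weeks and 7 to 296 at 32 weeks, the lowest at 24 hours, 4 weeks and 32 weeks being without the 1-week control and the highest at 32 weeks without the 4-week control. Leaving out 1 time gave 0 (24 hours) to 722 (12 weeks) for the irradiated slope.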
